A study of Schizosaccharomyces pombe with 8 samples.

Results

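The genes examined here are those for small nucleolar RNAs (snoRNAs) and spliceosomal small nuclear RNAs (snRNAs) in wild-type fission yeast, Schizosaccharomyces pombe. They were chosen by annotation, as the 57 rows typed as snoRNA genes and the 5 rows typed as snRNA genes on chromosomes I, II and III, so that 62 of 19343 annotated rows were kept. The rule used no measured value, although it was set with earlier results of these data known. Histones were mapped by ChIP-seq, in which chromatin fragments are pulled down and sequenced, with antibodies against H3 acetylated on lysine 14 (H3K14ac), against histone H4 acetylated on several of its tail lysines (H4ac) and against histone H3, with 2 biological replicates each. By the labels and the study's methods, all libraries came from the wild-type strain YAM2394, grown exponentially and fixed with formaldehyde (a figure legend of the study names another wild-type strain), so that no genotype or treatment was compared. The comparisons are therefore of each mark with H3, and of classes of genes with one another, and the 2 Input libraries named in the labels were not analysed here.

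In this assay the fragments bound by an antibody are sequenced, so that more tags fall on a row where more of the histone or its modification is present. Values are tag densities in tags per nt, which had been scaled in each library by 1 factor. A log2 ratio of 0 between 2 antibodies therefore marks a row that took an equal share of the tags of both, and says nothing about absolute amounts. Median densities of the 5118 protein-coding gene rows on chromosomes I, II and III lay between 1.23 and 1.24 tags per nt in all 6 libraries. The replicate labels do not tell separate cultures apart beyond calling them biological, so that the p-values measure the spread between these libraries.

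In most eukaryotes, snoRNAs guide chemical modification and cleavage of ribosomal RNA precursors in the nucleolus. Those of the box C/D family carry a C box and a D box near their ends and direct methylation of riboses, whereas those of the box H/ACA family end shortly after an ACA and direct the conversion of uridine to pseudouridine. The snRNAs U1, U2, U4, U5 and U6 are the RNA core of the spliceosome, and U1, U2, U4 and U5 are made by RNA polymerase II and U6 by RNA polymerase III. In yeasts, snoRNAs are transcribed from promoters of their own, cut from a common precursor that holds several of them, or released from introns of protein-coding genes. Acetylation of H3 and H4 is found mainly on nucleosomes at and just downstream of active promoters, and arrays of nucleosomes are interrupted at promoters themselves.

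The sequences of the genes were read from RefSeq (assembly ASM294v3) by identifier, and all 62 were found there. In 59 of them the start and end were those of the deposited table, which uses ASM294v2. The exceptions were snR90, snu6 and snu4. The row called snu4 (U4) did not overlap the RefSeq gene, which lies 127 nt away from it, and its values below are those of the deposited row. RefSeq names 19 of the snoRNAs as box H/ACA. The remaining 38 are called other snoRNA genes, since they include snR30 (U17), a box H/ACA RNA in budding yeast. A strict C box (TGATGA starting within the first 20 nt) was found in 19 of these 38 genes and in none of the 19 box H/ACA genes, against 0.196% of 5112 protein-coding genes. A D box (CTGA within the last 20 nt) was found in 30 of the 38 and in 2 of the 19, against 3.99% of protein-coding genes. Of the reverse complements, TCATCA was in none of the 38 and TCAG in 2. An ACA lying 3 nt from the end was found in 9 of the 19 box H/ACA genes and in 1 of the 38 others, which was snR30. In snR96 and snR10, which lack that ACA, its reverse complement TGT lies 3 nt after the start. The deposited row of snR46 is on the plus strand and its RefSeq gene on the minus strand. Strands below are those of the annotation, and whether they are right was not tested.

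The windows of 60 nt before the genes differed between classes. The sequence TATAAA was present on the sense strand in 4 of 5 snRNA genes, 4 of 19 box H/ACA genes, 3 of 38 other snoRNA genes and none of the 11 genes that lie on the same strand inside a protein-coding gene, against 6.63% of 5112 protein-coding genes (on either strand, in 4 of 5, 5 of 19 and 5 of 38, against 10.9%). In the 11 genes that held it, the TATAAA nearest to the gene began 28 to 34 nt before the annotated start, and U6 held a second one at 58 nt. The windows of the snRNA genes and of both U3 genes are shown first because they and snoU14 and sno12 were the 9 members with the lowest H3, with every TATAAA in capitals. They lie at chrII:3020145-3020204 (plus strand, U1), chrI:959557-959616 (minus, U2), chrII:467616-467675 (minus, before the RefSeq U4 gene), chrII:3236807-3236866 (plus, U5), chrI:2562420-2562479 (minus, U6), chrI:987826-987885 (minus, U3) and chrII:3959087-3959146 (minus, U3B). U2 and U3 held no TATAAA in this window. The U3 window is nearly identical to a stretch inside the U3B gene, so that the annotated start of U3 appears to lie within the RNA. It therefore cannot show whether TATAAA lies before the whole U3 RNA.
U1 (snu1), 60 nt upstream: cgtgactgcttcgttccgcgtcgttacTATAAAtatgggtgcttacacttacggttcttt
U2 (snu2), 60 nt upstream: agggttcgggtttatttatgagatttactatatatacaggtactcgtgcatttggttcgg
U4 (snu4), 60 nt upstream: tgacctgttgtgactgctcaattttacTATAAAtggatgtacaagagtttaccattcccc
U5 (snu5), 60 nt upstream: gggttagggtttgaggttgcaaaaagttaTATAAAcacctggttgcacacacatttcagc
U6 (snu6), 60 nt upstream: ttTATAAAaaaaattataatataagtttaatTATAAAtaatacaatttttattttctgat
U3 (snu3), 60 nt upstream: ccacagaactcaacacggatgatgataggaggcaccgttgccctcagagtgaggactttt
U3B (snu32), 60 nt upstream: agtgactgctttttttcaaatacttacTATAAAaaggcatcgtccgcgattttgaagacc

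The gene sequences that follow are those on which the comparisons turn, read 5′ to 3′ with the strict C box and the D box nearest to the end (snR51b holds another CTGA just before it), or the ACA of a box H/ACA gene, in capitals. They are snoU14 (chrII:1308634-1308745, plus strand), with very low H3, snoU24b (chrI:2440336-2440418, plus) and snoR54 (chrII:1707601-1707681, plus), with the lowest H3K14ac/H3, sno52 (chrI:339548-339642, minus) and snR94 (chrIII:923877-924086, plus), in which the marks parted most, and the 8 genes of the 2 clusters on chromosome I in their order along the plus strand.
snoU14: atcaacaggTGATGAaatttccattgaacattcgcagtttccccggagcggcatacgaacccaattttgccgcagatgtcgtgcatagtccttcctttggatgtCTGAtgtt
snoU24b: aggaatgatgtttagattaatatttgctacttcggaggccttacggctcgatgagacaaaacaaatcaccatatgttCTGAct
snoR54: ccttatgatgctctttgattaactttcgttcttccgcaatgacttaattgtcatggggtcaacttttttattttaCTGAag
sno52: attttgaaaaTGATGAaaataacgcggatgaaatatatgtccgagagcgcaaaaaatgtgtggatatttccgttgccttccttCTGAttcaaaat
snR94: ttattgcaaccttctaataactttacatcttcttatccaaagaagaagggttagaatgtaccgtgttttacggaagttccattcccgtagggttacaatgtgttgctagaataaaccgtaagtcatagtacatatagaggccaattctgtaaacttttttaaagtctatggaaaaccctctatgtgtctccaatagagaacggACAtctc
snoZ8: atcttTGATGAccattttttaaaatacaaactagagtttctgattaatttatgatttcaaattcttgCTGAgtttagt
snoZ7: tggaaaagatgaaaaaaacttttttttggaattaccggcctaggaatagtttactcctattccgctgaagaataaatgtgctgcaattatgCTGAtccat
snoZ5: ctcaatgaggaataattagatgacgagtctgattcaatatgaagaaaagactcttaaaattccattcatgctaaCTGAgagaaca
snoZ4: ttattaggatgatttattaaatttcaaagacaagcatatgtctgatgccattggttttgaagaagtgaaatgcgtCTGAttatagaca
snoZ3: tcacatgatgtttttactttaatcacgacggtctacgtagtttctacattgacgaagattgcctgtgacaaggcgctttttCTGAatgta
snR41: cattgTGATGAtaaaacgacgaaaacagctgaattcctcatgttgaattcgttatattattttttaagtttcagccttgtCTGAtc
snR70: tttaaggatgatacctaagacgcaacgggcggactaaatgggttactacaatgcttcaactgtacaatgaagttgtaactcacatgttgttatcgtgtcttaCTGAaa
snR51b: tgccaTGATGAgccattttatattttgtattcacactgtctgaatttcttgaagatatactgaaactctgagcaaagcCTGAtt

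In the deposited densities of the 62 genes, H3 was low while the marks were near the level of protein-coding genes. The median density of the members was 1.21 tags per nt for H3K14ac, 1.31 for H4ac and 0.728 for H3, against 1.24, 1.23 and 1.24 in protein-coding gene rows. H3 was under the median of gene rows in 54 of the 62 genes, and in 14 of them it was under the lowest 1 percent of gene rows. H3K14ac was over the gene median in 31 genes and H4ac in 34. H3 also varied most between members. The SD of the log2 density over members was 0.81 for H3K14ac, 0.72 for H4ac and 1.06 for H3, while the replicates of 1 antibody differed with an SD of 0.16, 0.21 and 0.23. The lowest and the highest H3 density were 0.0755 and 2.58 tags per nt, a range of 34.2-fold, against 10.1-fold for H3K14ac and 11.5-fold for H4ac.

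**Figure D1:**
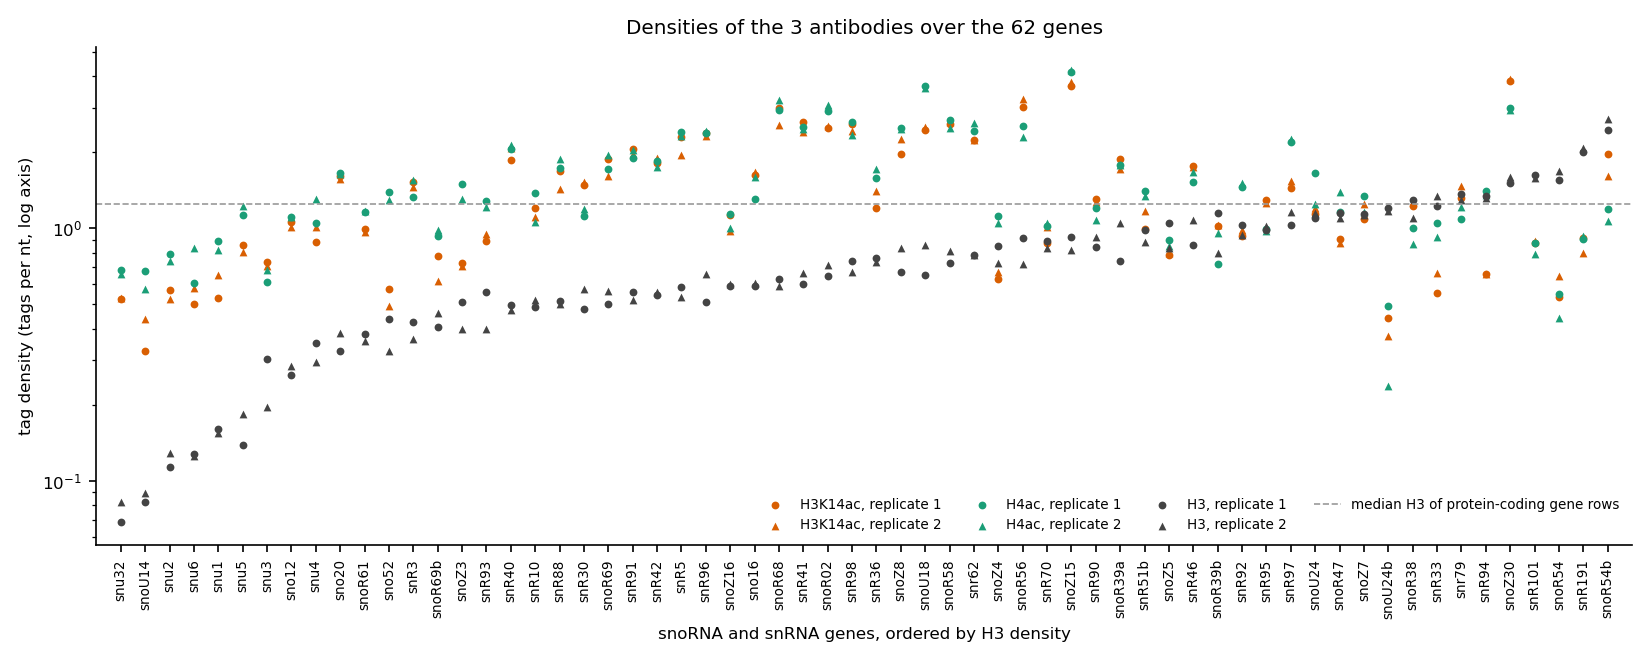
Tag densities (tags per nt, log axis) of H3K14ac (orange), H4ac (green) and H3 (dark grey) over the 62 genes, ordered by mean H3 density, with circles for replicate 1 and triangles for replicate 2 and the median H3 density of protein-coding gene rows as a dashed line. H3 spans 0.0755 to 2.58 tags per nt and lies under the dashed line in 54 genes, and the marks lie above H3 over most of the range.

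Members are short, from 47 to 653 nt with a median of 110 nt, and how a tag was assigned to a row is not stated, and the share of tags from the flanks was not tested. If each tag that touches a row was counted, 49 nt would have to be added to the length. The medians of the members would then be 0.893 (H3K14ac), 0.932 (H4ac) and 0.473 tags per nt (H3). Those of gene rows would be 1.20, 1.20 and 1.21. Both marks would thus also lie under the level of gene rows, though less far than H3. Rows of other kinds that fall in the same range of lengths had median H3 densities of 1.48 (5738 coding exons), 0.928 (274 short protein-coding genes), 0.975 (793 other noncoding RNA rows) and 0.192 tags per nt (171 tRNA genes). Their median lengths were 171, 472.5, 373 and 73 nt in this order, so that these sets are not matched to the members in length. Reads had been mapped uniquely, and all 50-mers of 61 members occurred once in the reference genome. The exception was snu32 (U3B), with 86.5% unique 50-mers.

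Each mark was then compared with H3 in limma, fitted on all rows, to ask which of the genes carried more or less acetylation than their H3 would give. H3K14ac was higher than H3 in 44 of the 62 genes and lower in 9 (adjusted p under 0.05), and 9 were not called. These are 71.0% and 14.5% of the members, against 52.5% and 40.0% of all 19340 rows tested. H4ac was higher than H3 in 48 genes and lower in 8, or 77.4% and 12.9%, against 51.1% and 40.0% of all rows. All 62 members passed the filter on low values. Rows in the members' range of lengths were also called higher more often than all rows. H3K14ac was higher in 77.4% and lower in 19.7% of the short protein-coding genes, in 62.8% and 30.6% of the other noncoding RNA rows, in 57.9% and 1.17% of the tRNA genes and in 62.2% and 31.0% of the coding exons. H4ac was higher in 75.9% and lower in 19.0% of the short protein-coding genes, in 64.0% and 29.8% of the other noncoding RNA rows, in 78.9% and none of the tRNA genes and in 58.6% and 31.0% of the coding exons. The shares of the members were thus close to those of short protein-coding genes, although these are longer, with a median of 472.5 nt against 110 nt. Coding exons and tRNA genes were nearer in length, with medians of 171 and 73 nt. With a difference of at least 1.5-fold in addition, 40 genes were higher and 6 lower for H3K14ac, against 39.0% and 25.1% of all rows, and 43 were higher and 5 lower for H4ac, against 35.2% and 22.8%. The members' log2 H3K14ac/H3 had a median of 1.35 (1.32 and 1.34 in replicates 1 and 2), against 0.21 over all rows tested and 0.01 over protein-coding gene rows. Their log2 H4ac/H3 had a median of 1.38 (1.37 and 1.57), against 0.16 and 0.01. In rows of the same range of lengths, the median log2 H3K14ac/H3 was 1.15 (short protein-coding genes), 0.92 (other noncoding RNA rows), 0.92 (tRNA genes) and 0.66 (coding exons), and the median log2 H4ac/H3 was 0.99, 0.83, 1.5 and 0.44, so that the median of tRNA genes was above that of the members for H4ac/H3. In 43 genes both marks were higher, in 6 both were lower, and in snoZ4 alone they were called in opposite directions. In 44 genes all 4 libraries of the marks lay above both H3 libraries, and in 6 all lay below. These joint counts cover the members only, and no share over all rows is given for them.

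Because nearly all rows of the table were called in one direction or the other, a call says that the mark and H3 differed by more than the replicates did, and the size of the ratio tells more. The SE that limma gave for the members had a median of 0.09, less than the 0.15 (H3K14ac/H3) and 0.14 (H4ac/H3) that counting error on the recovered tags gives, and the counting error was the larger one in 55 of 62 genes for each mark. A fit on the recovered tags with voom, which weights each row by its tags, called 44 genes higher and 8 lower for H3K14ac and 46 higher and 7 lower for H4ac.

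The ratios fell as H3 increased from gene to gene. Over the 62 members, Spearman's rho with log2 H3 density was -0.75 (log2 H3K14ac/H3) and -0.82 (log2 H4ac/H3), and over protein-coding gene rows it was -0.67 and -0.72. These ratios share the H3 libraries with the axis they are set against, and the values are given as a description over genes. The densities of the marks themselves followed H3 little (rho of 0.17 for H3K14ac and 0.04 for H4ac). The genes that stood apart from the cloud of protein-coding rows were those with very low H3 at one end and snoR54b and snR191 at the other, as the plot of the ratios against H3 density shows.

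**Figure D2:**
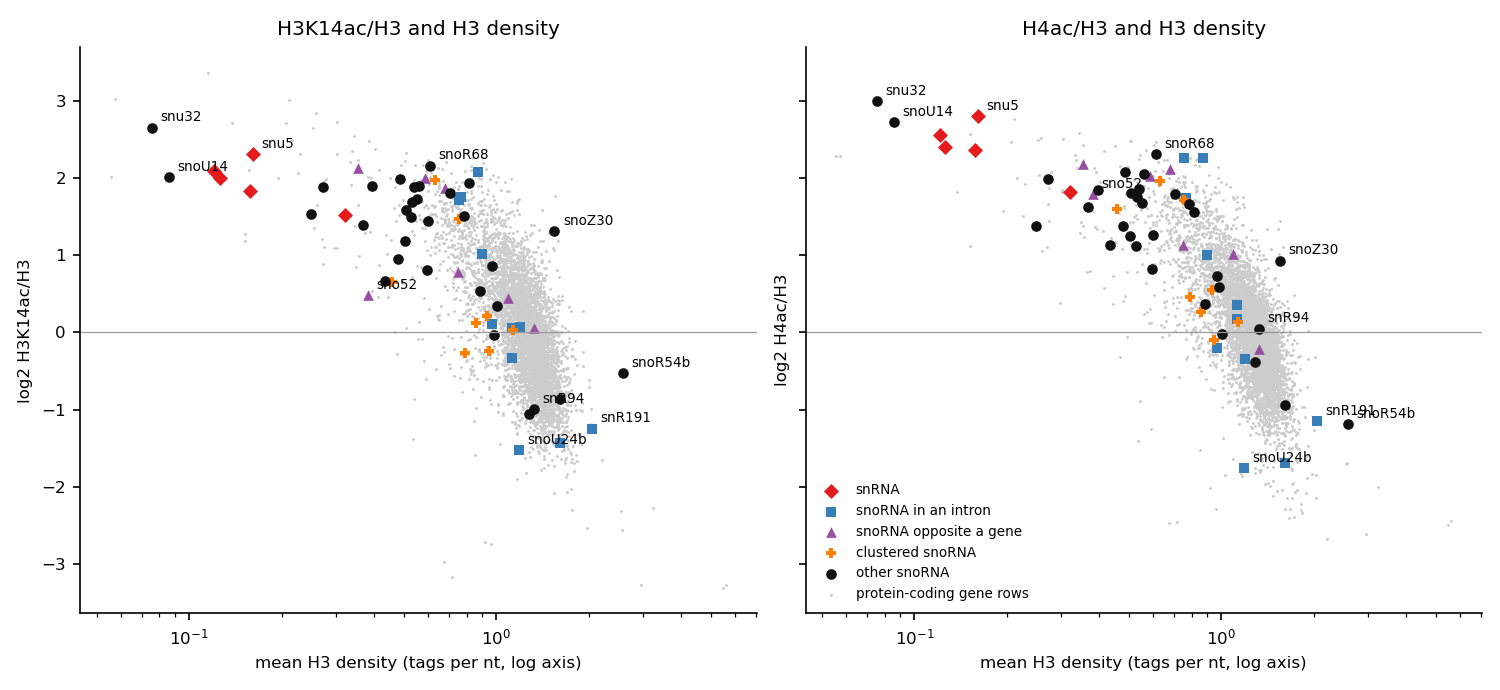
Log2 H3K14ac/H3 (left) and log2 H4ac/H3 (right) against mean H3 density (tags per nt, log axis) for snRNA genes (red diamonds), snoRNA genes in an intron (blue squares), opposite a gene (purple triangles), clustered (orange crosses) and other snoRNA genes (black circles), with protein-coding gene rows in grey. The snRNA genes sit at low H3 with log2 H3K14ac/H3 of 1.52 to 2.31, and intronic snoRNA genes spread over the range of the gene rows.

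The 5 snRNA genes had the pattern of low H3 and moderate marks in common. Their mean H3 densities lay between 0.121 and 0.322 tags per nt, and only 4 of the 5118 protein-coding gene rows were below the lowest of them. U2 (snu2, which pairs with the branch point of introns) had 0.572 and 0.527 tags per nt for H3K14ac and 0.788 and 0.740 for H4ac, against 0.113 and 0.128 for H3. Both marks were far above H3 in each replicate, with log2 ratios of 2.1 ± 0.10 (H3K14ac/H3) and 2.57 ± 0.10 (H4ac/H3; SE, n = 2 libraries each; limma, adjusted p = 2.8e-06 and 1.5e-06). U6 (snu6, which forms part of the catalytic centre and has an intron in this species) had 0.50 and 0.58 tags per nt for H3K14ac and 0.607 and 0.836 for H4ac, against 0.127 and 0.125 for H3. The marks again lay above H3 in all libraries, although the 2 H4ac libraries of U6 differed more from each other than those of U2. U5 (snu5, which holds the exon ends) had the highest log2 ratios of the 5, 2.31 ± 0.13 and 2.81 ± 0.13 (SE), from 0.860 and 0.805 tags per nt for H3K14ac and 1.13 and 1.22 for H4ac, against 0.138 and 0.183 for H3.

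U1 (snu1, which recognises the 5′ splice site) had 0.529 and 0.655 tags per nt for H3K14ac and 0.886 and 0.822 for H4ac, against 0.161 and 0.154 for H3. Its log2 ratios of 1.84 and 2.37 were between those of the others. The row called snu4 (U4, which keeps U6 inactive until the spliceosome is activated) had the lowest ratios of the 5, 1.52 and 1.83, with 0.880 and 1.01 tags per nt for H3K14ac and 1.04 and 1.30 for H4ac, against 0.350 and 0.295 for H3. A noncoding transcription unit that covers this row and nearly all of the RefSeq U4 gene, novelncTU_372, gave 1.74 and 2.02. All 5 genes were called higher for both marks. H3K14ac was lower than H4ac in U1 (log2 H3K14ac/H4ac of -0.53), U5 (-0.50) and U2 (-0.47), and in U6 (-0.40) and U4 (-0.30) this difference was not called. The calls were lost in U1 without H4ac replicate 1 (-0.48), in U2 without H4ac replicate 1 (-0.43) or H3K14ac replicate 2 (-0.41), and in U5 without H3K14ac replicate 1 (-0.54) or 2 (-0.45) or H4ac replicate 2 (-0.44). The H3 values of these genes rest on few tags, 18 to 49 per library, and counting error alone gives an SE of 0.17 to 0.25 for their log2 ratios.

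The snoRNA genes with the lowest H3 were those of U3 and U14, which are needed for the cleavages that release the RNA of the small ribosomal subunit. U3B (snu32) had 0.526 and 0.530 tags per nt for H3K14ac and 0.685 and 0.661 for H4ac, against 0.0687 and 0.0824 for H3, which rest on 19 and 21 tags. Its log2 ratios of 2.66 ± 0.14 and 3.0 ± 0.14 (SE) were the highest of all members for both marks. The other U3 gene, snu3, had marks of similar density, 0.736 and 0.711 tags per nt for H3K14ac and 0.615 and 0.684 for H4ac, but H3 of 0.302 and 0.195, so that its ratios were 1.53 and 1.38. The snu3 row appears to begin within the RNA, as described above, so that it and the U3B row do not cover like stretches. A noncoding transcription unit that overlaps the snu3 row and reaches further upstream, novelncTU_269, gave 1.72 and 1.58. For snoU14, H3K14ac was 0.327 and 0.435 and H4ac 0.678 and 0.572 tags per nt, against 0.0823 and 0.0893 for H3, each of which rests on 10 tags. The ratios of snoU14 were 2.02 ± 0.21 and 2.73 ± 0.21 (SE).

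High ratios also occurred where H3 was not as low. snoR68 had 2.98 and 2.57 tags per nt for H3K14ac and 2.94 and 3.23 for H4ac, against 0.631 and 0.589 for H3 (log2 ratios of 2.16 and 2.32). It holds TATAAA 33 nt before its start and lies inside the longer noncoding RNA row SPNCRNA.1650, whose ratios were 2.06 and 1.90. Among the 7 snoRNA genes with TATAAA upstream, the median H3 density was 0.526 tags per nt and the median ratios were 1.89 (H3K14ac/H3) and 1.85 (H4ac/H3). The 39 snoRNA genes that held none and were in no same-strand gene row had a median H3 of 0.708 tags per nt and median ratios of 0.95 and 1.26. They include the 8 clustered genes described below, with median ratios of 0.17 and 0.51. They also include snu3, whose window appears to lie within the RNA. What the sequence itself contributes was not tested. The other end of the range was held by snoR54b, whose H3 was the highest of all members. It had 1.97 and 1.61 tags per nt for H3K14ac and 1.19 and 1.07 for H4ac, against 2.46 and 2.71 for H3, and its log2 ratios were -0.53 and -1.19. This gene lies opposite to XUT0712 (a cytoplasmically degraded noncoding RNA) and 3226 nt from the nearest 5′ end of a protein-coding gene.

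The next comparison asked whether snoRNA and snRNA genes that overlap a protein-coding gene row differed from those that do not. Of the 62 genes, 19 overlapped a gene row by at least 1 nt and 43 did not. The overlapping genes had a median log2 H3K14ac/H3 of 0.48 against 1.47 in the others, a median log2 H4ac/H3 of 1.02 against 1.56, and a median H3 density of 0.896 against 0.595 tags per nt. The differences of medians were -0.99 (H3K14ac/H3; -0.96 and -0.84 in replicates 1 and 2), -0.54 (H4ac/H3; -0.41 and -0.67) and 0.56 (log2 H3 density; 0.64 and 0.54). Genes are not replicates, and no test was run over them. Both replicates gave the same direction for each measure. Without H3 replicate 2 the H4ac/H3 difference was -0.30. Among the 34 members of at least 100 nt, of which 7 overlapped a gene row, the differences of the ratios were 0.03 and 0.45, so that their direction did not hold in the longer genes. This limit also changed the make-up by strand. Of the genes on the same strand as their gene row, only snR191 and snoZ15 are that long. Length and strand were not told apart here.

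The strand divided the overlapping genes. All 11 on the same strand lay wholly between RefSeq exons of the host, 6 within its coding region, 1 before it and 4 after it, and are called intronic here. The 8 others were on the opposite strand, 6 of them behind the coding region, 1 before it (snR96) and 1, sno20, over the coding exon of SPBC1921.04c. These 8 include the snu4 row, which overlaps met17 (homocysteine synthase) by 15 of its 129 nt and lies away from the RefSeq U4 gene. Median H3 in the intronic genes was 1.12 tags per nt in the deposited densities, close to that of gene rows. Their median log2 ratios were 0.07 (H3K14ac/H3) and 0.18 (H4ac/H3). The opposite-strand genes had a median H3 of 0.633 tags per nt and ratios of 1.16 and 1.81. Of the 11 intronic genes, 4 were called higher and 4 lower for H3K14ac, and 5 higher and 4 lower for H4ac, next to 52.5% and 40.0%, and 51.1% and 40.0%, of all rows. Of the 8 opposite-strand genes, 7 were higher and none lower for H3K14ac, and 7 were higher and 1 lower for H4ac. Of the 43 genes with no gene row, 33 were higher and 5 lower for H3K14ac, and 36 were higher and 3 lower for H4ac. When only same-strand overlap was counted as overlap, the differences were -1.41 (H3K14ac/H3), -1.43 (H4ac/H3) and 0.90 (log2 H3 density).

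**Figure D3:**
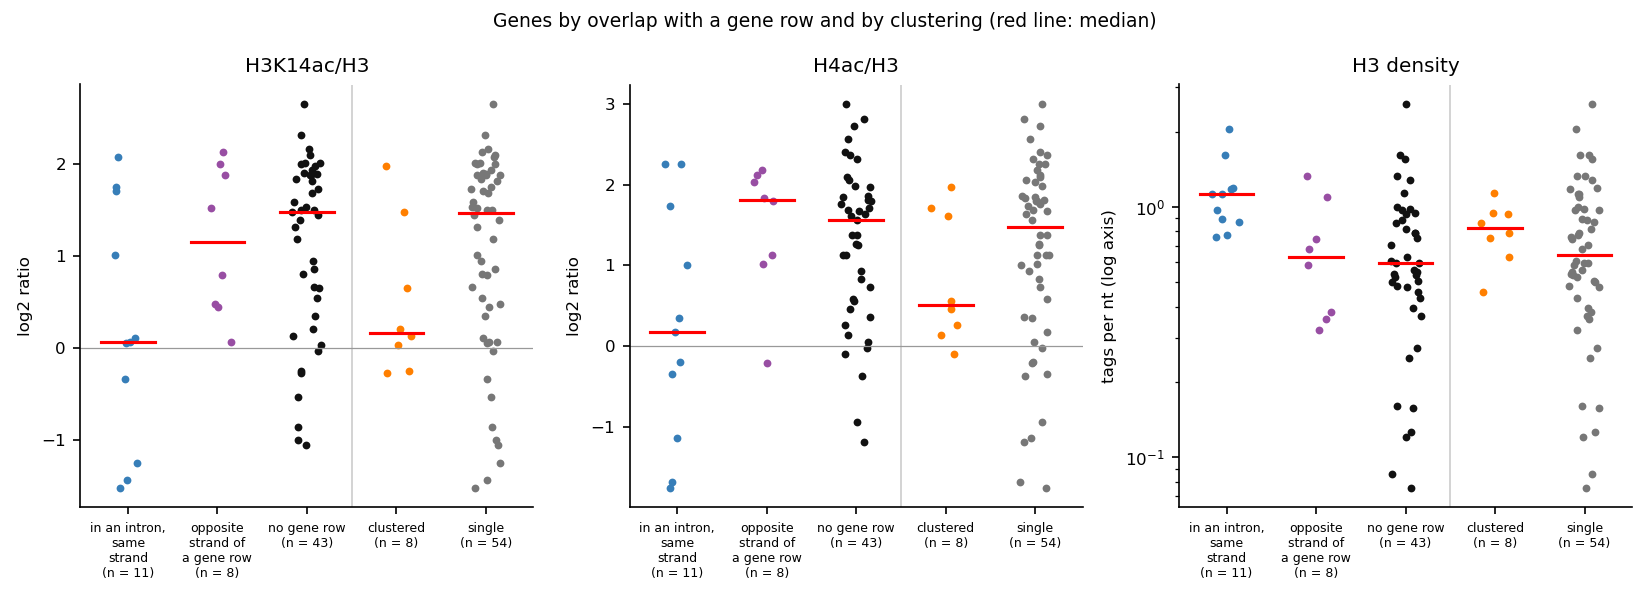
Log2 H3K14ac/H3, log2 H4ac/H3 and H3 density (tags per nt, log axis) of the 62 genes, each point 1 gene and each red line a median, by overlap with a gene row (left of the grey line) and by clustering (right of it). The 11 intronic genes have medians of 0.07 and 0.18 for the ratios, the 43 genes with no gene row 1.47 and 1.56, the 8 clustered genes 0.17 and 0.51 and the 54 single genes 1.47 and 1.47.

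The 3 lowest H3K14ac/H3 ratios of all members were those of intronic genes. snoU24b, whose human and budding yeast counterparts guide methylation of the large ribosomal RNA, lies in an intron of cpc2 (the RACK1 homologue, a protein of the small ribosomal subunit). It had 0.441 and 0.373 tags per nt for H3K14ac and 0.490 and 0.238 for H4ac, against 1.20 and 1.17 for H3. All mark libraries were below both H3 libraries, and the log2 ratios were -1.52 ± 0.31 and -1.76 ± 0.31 (SE; limma, adjusted p = 0.0032 and 0.0017). snoR54, in an intron of gua1 (IMP dehydrogenase, for guanine nucleotide synthesis), had 0.533 and 0.648 tags per nt for H3K14ac and 0.547 and 0.442 for H4ac, against 1.55 and 1.68 for H3, with ratios of -1.44 and -1.69. snR191 (chrI:2735048-2735175, minus strand), in an intron of nog2 (a GTPase of ribosome export), had 0.916 and 0.799 tags per nt for H3K14ac and 0.905 and 0.934 for H4ac, against 2.01 and 2.09 for H3, with ratios of -1.25 and -1.15. These 3 genes also had more H3 than the gene row around them, which averaged 0.715 (cpc2), 1.12 (gua1) and 1.15 tags per nt (nog2).

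The intronic genes with high ratios were snoZ15, snoR58, snoU18 and snoR39a. snoZ15 (chrII:1756122-1756222, minus strand), in an intron behind the coding region of pfd1 (a prefoldin subunit, which helps fold actin and tubulin), had 3.64 and 3.8 tags per nt for H3K14ac and 4.16 and 4.24 for H4ac, against 0.922 and 0.822 for H3. Its H4ac density was the highest of all members. The pfd1 row as a whole also had high ratios, 1.57 and 1.64, against 2.08 and 2.26 in snoZ15. snoR58 lies 242 nt from the 5′ end of ade4 (amidophosphoribosyltransferase, of purine synthesis), in an intron before the coding region. Its ratios were 1.75 and 1.74, while the ade4 row of 2552 nt had -0.57 and -0.19. The ratios of snoR39a, 212 nt from the 5′ end of rlp7 (a ribosome biogenesis factor), were 1.01 and 1.00, and those of snoU18, behind the coding region of ero11 (an oxidoreductase of the endoplasmic reticulum), were 1.71 and 2.26. In the introns of SPAC29A4.02c (a subunit of elongation factor 1), rpl701 (a ribosomal protein L7-like protein), spt20 (a SAGA subunit) and fta3 (a kinetochore protein), the log2 H3K14ac/H3 of snoR38, snoR39b, snoU24 and snoR47 was between -0.34 and 0.11.

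Set against their host rows, intronic genes had more H3 in both replicates in 9 of 11 pairs and less in 2 (snoR58 and snoU18). Their H3K14ac/H3 was higher than that of the host in both replicates in 5 pairs and lower in 6, and likewise 5 and 6 for H4ac/H3. Opposite-strand genes had less H3 than the gene row in both replicates in 6 of 8 pairs, and a higher H3K14ac/H3 in 6 and a lower one in 2. The snu4 row, which barely overlaps met17, is among these 8. The median difference from the gene row in H3K14ac/H3 was -0.48 for intronic and 1.12 for opposite-strand genes, and in H4ac/H3 it was -0.22 and 1.32. A gene row includes the tags of the member inside it.

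**Figure D4:**
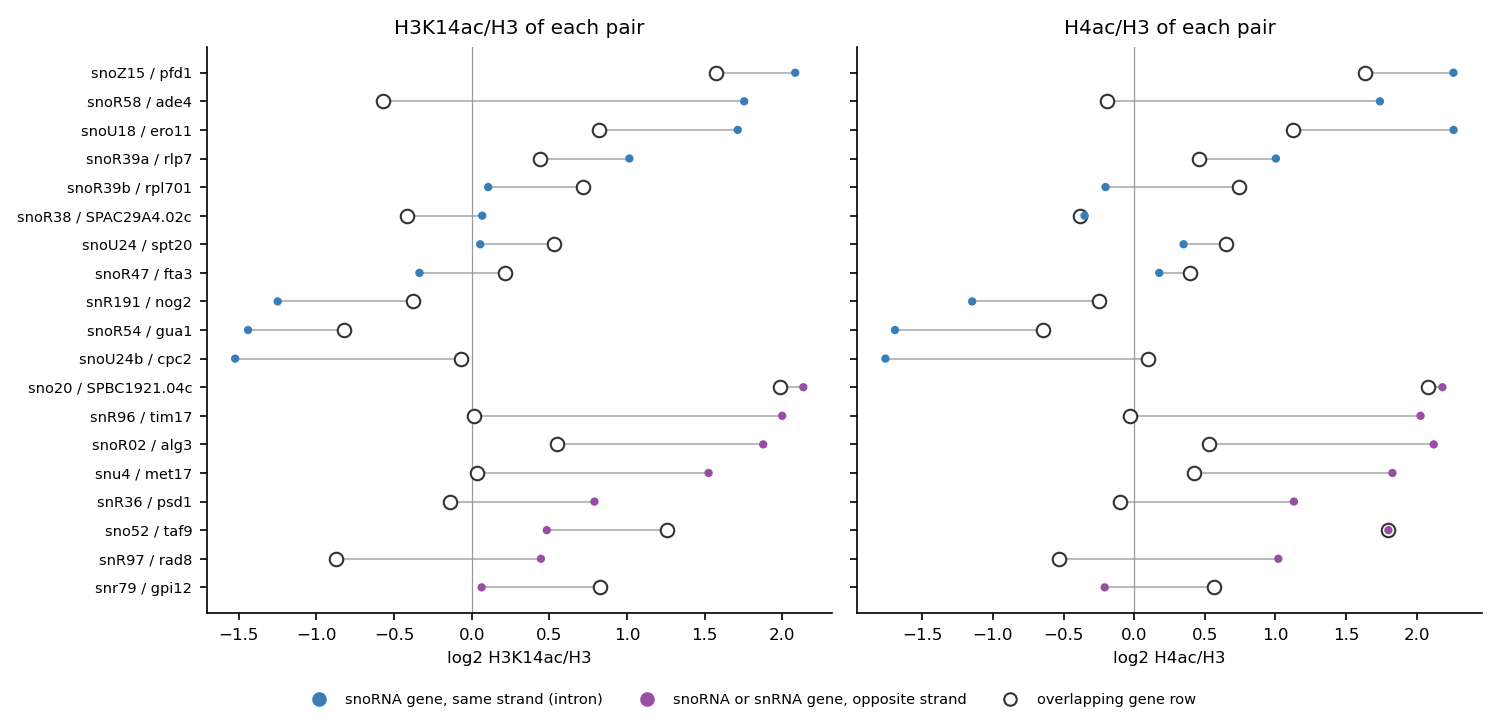
Log2 H3K14ac/H3 (left) and log2 H4ac/H3 (right) of the 19 overlapping genes (filled, blue on the same strand and purple on the opposite strand) and of the gene rows they overlap (open circles), joined by a line per pair. In the 3 lowest blue pairs the snoRNA gene lies below its host, as for snoU24b at -1.52 and cpc2 at -0.07 in H3K14ac/H3, and in 6 of the 8 purple pairs it lies above.

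Among the opposite-strand genes, sno20 (chrII:2411190-2411361, plus strand) had the highest H3K14ac/H3. Its densities were 1.61 and 1.56 tags per nt for H3K14ac and 1.65 and 1.64 for H4ac, against 0.327 and 0.384 for H3, with log2 ratios of 2.13 and 2.18. The gene row opposite, SPBC1921.04c, is 457 nt long and had similar ratios, 1.99 and 2.08. snR96 (chrI:1451227-1451437, plus strand), which spans the 5′ end of tim17 (a subunit of the mitochondrial import machinery), had 2.38 and 2.32 tags per nt for H3K14ac and 2.37 and 2.42 for H4ac, against 0.511 and 0.659 for H3. Its ratios of 2.00 and 2.03 compare with 0.01 and -0.03 over the whole tim17 row. snoR02, opposite the end of alg3 (a mannosyltransferase), gave 1.88 and 2.12. snR97, opposite the end of rad8 (a ubiquitin ligase of DNA repair), had an H3 of 1.03 and 1.16 tags per nt and ratios of 0.45 and 1.02, and snr79, opposite the end of gpi12 (of GPI anchor synthesis), was the only one of the 8 with a lower H4ac (log2 H4ac/H3 of -0.21). That call was lost in the voom fit, without H4ac replicate 1 (-0.13) and without H3 replicate 1 (-0.17) or 2 (-0.24).

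Of the 43 genes with no gene row, the highest H3K14ac/H3 was in U3B, U5 and snoR68, which are given above. The lowest was in snR33, snR94 and snR101, all of the box H/ACA family. snR33 (chrII:2447904-2448048, minus strand) had 0.556 and 0.666 tags per nt for H3K14ac and 1.05 and 0.922 for H4ac, against 1.23 and 1.34 for H3, with log2 ratios of -1.06 and -0.38. The call on its H4ac was lost without H4ac replicate 2 (-0.29) and without H3 replicate 2 (-0.32). snR101 (chrI:2789709-2789981, plus strand) had 0.873 and 0.886 tags per nt for H3K14ac and 0.871 and 0.790 for H4ac, against 1.63 and 1.59 for H3, with ratios of -0.86 and -0.95. In both genes the deposited H3 density was at or above the level of protein-coding rows, unlike in most members of this class, whose median H3 was 0.595 tags per nt. The 15 box H/ACA genes with no gene row had median ratios of 0.95 and 1.25 and included the 3 lowest, with 11 of 15 called higher for each mark. The 16 other single snoRNA genes of this class had medians of 1.52 and 1.60, with 15 of 16 called higher for each mark and snoR54b as the exception. Of all rows, 52.5% (H3K14ac) and 51.1% (H4ac) were called higher. The median length was 168 nt in these box H/ACA genes and 93 nt in the 16 others, and the part that length plays was not tested.

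Clustered genes were then compared with single ones. A gene was taken as clustered when another member lay within 500 nt, which gave 8 clustered genes in 2 groups and 54 single genes. The clustered genes had a median log2 H3K14ac/H3 of 0.17 against 1.47 in single genes, a median log2 H4ac/H3 of 0.51 against 1.47, and a median H3 density of 0.824 against 0.645 tags per nt. The differences of medians were -1.31 (-1.36 and -1.09 in replicates 1 and 2), -0.97 (-1.03 and -1.05) and 0.35 on the log2 scale for H3 (0.43 and 0.32). No clustered gene overlaps a gene row, and against the 35 single genes that overlap none either, the differences were -1.37, -1.13 and 0.60. The snRNA genes, which are low in H3, are all single, and among snoRNA genes alone the differences were -1.15, -0.75 and 0.13. The 8 genes come from only 2 loci and share their surroundings, and no test was run over them. H3K14ac was higher in 3 of the 8 and lower in 1, and H4ac was higher in 6 and lower in none, next to the shares of all rows given above.

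Within each cluster, the first gene had ratios at or above the medians of single genes, and most of the genes behind it did not. The cluster of 5 spans 988 nt inside the noncoding RNA row snoZ (chromosome I, from 526641 to 528541). Its first gene, snoZ8, had 1.96 and 2.25 tags per nt for H3K14ac and 2.49 and 2.46 for H4ac, against 0.674 and 0.833 for H3, with log2 ratios of 1.47 ± 0.11 and 1.71 ± 0.11 (SE). The second gene, snoZ7, 133 nt behind it, had 1.09 and 1.25 for H3K14ac and 1.34 and 1.16 for H4ac, against 1.14 and 1.13 for H3, with ratios of 0.04 and 0.13 that were not called. The third, snoZ5, had -0.25 and -0.10, neither of them called.

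In the last 2 genes of this cluster the marks parted. snoZ4 had 0.629 and 0.671 tags per nt for H3K14ac and 1.12 and 1.05 for H4ac, against 0.848 and 0.727 for H3, so that H3K14ac was lower than H3 (-0.27, adjusted p = 0.017) and H4ac higher (0.46, adjusted p = 0.0016; limma). The call on H3K14ac in snoZ4 was lost in the voom fit, without H3K14ac replicate 1 (-0.22) and without H3 replicate 1 (-0.16). snoZ3 had 0.729 and 0.709 tags per nt for H3K14ac and 1.5 and 1.31 for H4ac, against 0.512 and 0.400 for H3, with ratios of 0.66 and 1.61. Both H4ac libraries thus stood above both H3K14ac libraries in these genes, whereas H3K14ac was lowest in snoZ4 and H3 was lowest in snoZ3.

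The cluster of 3 spans 562 nt and holds snR41, snR70 and snR51b, whose counterparts are also neighbours in budding yeast. snR41 had 2.63 and 2.40 tags per nt for H3K14ac and 2.51 and 2.46 for H4ac, against 0.600 and 0.663 for H3, with log2 ratios of 1.98 ± 0.06 and 1.96 ± 0.06 (SE). Counting error alone gives a larger SE of 0.15 for each of these ratios. snR70, 140 nt behind it, had 0.877 and 1.01 for H3K14ac and 1.02 and 1.05 for H4ac, against 0.888 and 0.833 for H3, with ratios of 0.13 and 0.26. snR51b had 0.994 and 1.17 for H3K14ac and 1.40 and 1.35 for H4ac, against 0.987 and 0.881 for H3, with ratios of 0.21 and 0.55. In both clusters the first gene on the strand thus had the highest densities of both marks and the highest H3K14ac/H3. For H3K14ac/H3 in snR70 and snR51b the difference from H3 was not called, while H4ac was called higher in both. In snR70 the H4ac call was lost in the voom fit, without H4ac replicate 2 (0.25) and without H3 replicate 2 (0.22). The gaps between the genes were 111 to 154 nt, and how far neighbouring rows share ChIP fragments was not tested.

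**Figure D5:**
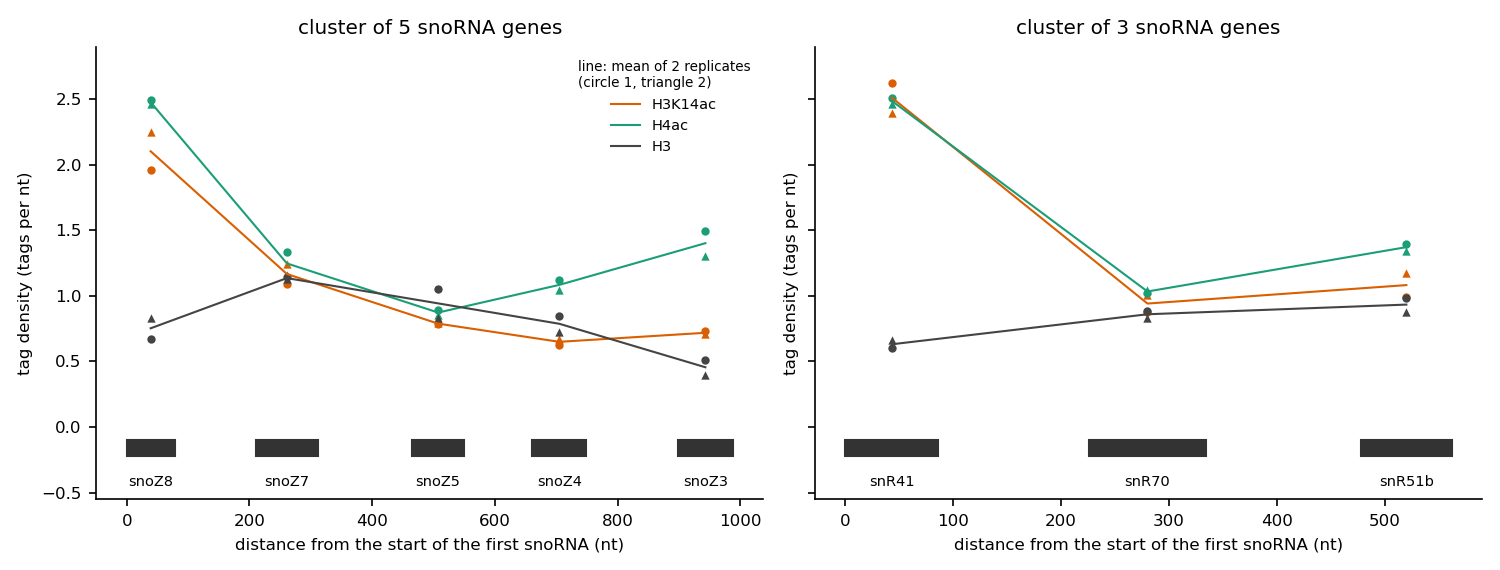
Tag densities (tags per nt) of H3K14ac (orange), H4ac (green) and H3 (dark grey) over the genes of the cluster of 5 (left) and of 3 (right), at the middle of each gene, as distance in nt from the start of the first, with lines for the mean of 2 replicates, symbols for each replicate and bars for the genes. Both marks are highest in the first gene, snoZ8 and snR41, where H3K14ac is 1.96 and 2.25 and 2.63 and 2.40 tags per nt.

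Finally, the marks were compared with each other. H3K14ac was higher than H4ac in 7 of the 62 genes and lower in 20, which are 11.3% and 32.3% of the members against 32.5% and 29.3% of all rows tested, and at least 1.5-fold so in 1 and 7 genes, against 3.68% and 2.60%. Without H3K14ac replicate 2 only 3 genes were higher. Over members the ratios of both marks to H3 went together, with Pearson's r of 0.94 as a description over 62 genes that share the H3 libraries. The median log2 H3K14ac/H4ac was -0.12, against 0.02 over all rows. In rows of the members' range of lengths the median was 0.11 (short protein-coding genes), 0.02 (other noncoding RNA rows), -0.56 (tRNA genes) and 0.12 (coding exons). The tRNA genes thus lay further to the side of H4ac than the members. The lowest value among the members was that of sno52, opposite the end of taf9 (a subunit of TFIID and SAGA). sno52 had 0.573 and 0.494 tags per nt for H3K14ac and 1.39 and 1.29 for H4ac, against 0.437 and 0.326 for H3. The call on its H3K14ac/H3 was lost without H3K14ac replicate 1 (0.38), and the value was 0.28 without H3 replicate 2. Its log2 H3K14ac/H4ac was -1.32 ± 0.14 (SE; limma, adjusted p = 0.00079), and H4ac/H3 was 1.80 while H3K14ac/H3 was 0.48. In the taf9 row H4ac/H3 was also 1.80, but H3K14ac/H3 was 1.26. snR94, a box H/ACA gene on chromosome III, had 0.661 and 0.661 tags per nt for H3K14ac and 1.40 and 1.35 for H4ac, against 1.34 and 1.31 for H3. H3K14ac was thus at a level of 1.05 log2 units under H4ac, which itself did not pass the test against H3 (0.05). snoZ3, the last gene of the cluster of 5, followed with -0.95.

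The highest H3K14ac/H4ac was in snoR54b (0.66 ± 0.11, SE), followed by snoR38 (0.42) and snoZ30 (0.39). The call in snoR38 was lost without H3K14ac replicate 2 (0.40) and without H4ac replicate 2 (0.31). snoZ30 (chrII:2044411-2044505, plus strand) had the highest H3K14ac density of all members, 3.84 and 3.89 tags per nt, with 2.99 and 2.92 for H4ac, against 1.5 and 1.59 for H3. Of the 8 members with H3 above the median of gene rows, snoZ30 was the only one in which H3K14ac was called higher than H3. Its log2 ratios were 1.32 and 0.93.

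For context, the protein-coding genes of the particles that hold these RNAs were read from the same fit. Of 24 genes for proteins of the C/D and H/ACA snoRNPs and the Sm and Lsm rings, H3K14ac was higher than H3 in 18 and lower in 4, and H4ac was higher in 16 and lower in 5. Among the 5118 protein-coding gene rows, H3K14ac was higher in 2362 and lower in 2307, and H4ac in 2355 and 2277. Their median log2 H3K14ac/H3 was 0.45, and their median H3 density was 1.05 tags per nt, above that of the RNA genes. By family, H3K14ac was higher in 6 of 7 Sm genes, 7 of 8 Lsm genes, 3 of 4 H/ACA genes and 2 of 5 C/D genes. The lowest of them was nop58, a core protein of C/D snoRNPs, with a log2 H3K14ac/H3 of -1.05, and the highest was nop10, of H/ACA snoRNPs, with 1.64. The nop58 row is 2069 nt long and the nop10 row 426 nt, against a median of 1887.5 nt over protein-coding gene rows. Short protein-coding genes were called higher for H3K14ac in 77.4%, and the part that length plays in these lists was not tested. Of 4 genes for cap and processing factors, tgs1 (which methylates snRNA and snoRNA caps) was higher (0.50) and pac1 (the RNase III that cuts their precursors) lower (-1.43). Of 4 genes for other stable RNAs, mrp1 (RNase MRP RNA), rrk1 (RNase P RNA) and ter1 (telomerase RNA) were higher for H3K14ac (1.27, 0.44 and 0.49), and srp7 (signal recognition particle RNA) was not called (0.26). H4ac was higher in all 4, with a log2 H4ac/H3 of 1.01 (mrp1), 0.28 (rrk1), 0.27 (ter1) and 1.22 (srp7; limma, adjusted p = 0.0016). The H3 density of srp7, 0.205 tags per nt, was in the range of the snRNA genes.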

How the data were processed

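The authors mapped ChIP-seq reads uniquely with Bowtie2 to ASM294v2 and deposited, for 6 of the 8 labelled libraries, a signal per annotated row: tag density in tags per nt, scaled by 1 factor per library. How tags were assigned to rows is not given in the sources used here. Every deposited density times row length was a whole multiple (tolerance 0.01) of a library step of 0.905 to 1, which gave back the tags. Libraries held 14014219 to 15214393 tags over gene rows, and members a median of 158 to 196 tags for the marks and 74 to 87.5 for H3, with 10 as the minimum.

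Log2(density + 0.01) was fitted over 3 antibodies with limma 3.58.1 in R 4.3.3 on the 19340 of 19343 rows with at least 0.05 tags per nt in 2 or more libraries, and p-values were adjusted by Benjamini-Hochberg over these rows, with calls at 0.05. The pseudocount shrinks the ratios of low rows. The fit was tested on simulated data. Overlap with a gene row needed 1 nt, and clusters a gap of at most 500 nt. Groups of genes were compared by medians without a test. With 2 libraries against 2, an exact permutation test cannot go below p = 0.333. Named genes were the snRNA and U3 genes, all clustered genes, the gene rows that members overlap, the listed particle genes, and the 3 highest and 3 lowest snoRNA genes for each ratio and for H3, and for H3K14ac/H3 within overlapping and non-overlapping genes. The other genes paired with an overlapped gene row, and snR30, snR90 and sno12, were named after their values were seen. Members, lists and tests were chosen with earlier results of these data known. Sequences are RefSeq, ASM294v3. Other pseudocounts, filters, fits, length and uniqueness limits, overlap rules and left-out libraries were tried.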

Additional observations from a re-analysis of the deposited data

How the results depend on the processing

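Members are short, and tags in H3 libraries limit their ratios. Limiting the comparison to members of at least 100 nt turned the overlapping minus non-overlapping difference to 0.027 for log2 H3K14ac/H3 and 0.45 for log2 H4ac/H3 and gave 0.47 for log2 H3 density. Of the intronic genes, only snR191 and snoZ15 were left. The same limit gave -1.46 for clustered minus single H4ac/H3 and 0.85 for H3, with 2 clustered genes left. Of these 34 members, H3K14ac was higher in 27 and lower in 4, H4ac was higher in 28 and lower in 3, and H3K14ac/H4ac was higher in 2 and lower in 11. Counting same-strand overlap only gave -1.41, -1.43 and 0.90, and an overlap of at least 50% of the member gave 0.66 for H3.

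For clustered minus single H4ac/H3, a pseudocount of 0.001 gave -0.98, one of 0.1 gave -0.86, unique members gave -0.87, genes with no gene row -1.13 and snoRNA genes alone, an alternative chosen after seeing the data, -0.75. For H3 the last 2 gave 0.60 and 0.13. Adding 49 nt to row lengths gave median densities of 0.893 (H3K14ac), 0.932 (H4ac) and 0.473 (H3). With 1.5-fold in addition, H4ac was lower in 5, and H3K14ac/H4ac higher in 1 and lower in 7.

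Leaving out each library in turn gave overlapping minus non-overlapping differences of -0.99 to -0.74 (H3K14ac/H3), -0.73 to -0.30 (H4ac/H3) and 0.54 to 0.64 (H3), and clustered minus single differences of -1.37 to -1.19, -1.06 to -0.94 and 0.32 to 0.43. The median H3 density was 0.664 to 0.717, and H3K14ac/H4ac was higher in 3 to 8 and lower in 14 to 24 genes. The direction turned, in uncalled values, in snoZ7 (-0.062 to 0.13), snr79 (-0.019 to 0.15), snoR38 (-0.053 to 0.19), snoR39b (-0.16 to 0.37) and snR92 (-0.11 to 0.029) for H3K14ac/H3, and in snoZ5 (-0.27 to 0.063), snR95 (-0.054 to 0.0015) and snoR39b (-0.46 to 0.059) for H4ac/H3. The causes were not tested.

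With the replicate number as a block, H3K14ac was higher in 44 and lower in 10, H4ac in 48 and 8, and H3K14ac/H4ac in 7 and 20. The numbers did not pair the libraries, as same-numbered deviations correlated at -0.037, -0.0075 and 0.055. Over 13 alternatives, 51 of 53 calls for H3K14ac and 51 of 56 for H4ac were kept under every one, and no called value changed direction.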
